A study of Mus musculus with 12 samples.

Results

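The circadian clock genes considered here were the 10 count rows whose symbols are Per1, Per2, Per3, Cry1, Cry2, Clock, Arntl, Nr1d1, Dbp and Bhlhe41, out of 32531 gene rows. All 10 passed the filter on low counts, along with 18128 genes in all, and their lowest count in any library was 259 reads, for Dbp. They were compared across the 4 groups and by the replicate number in the labels. The groups were hypothalamus IP, hypothalamus input, midbrain IP and midbrain input, with 3 libraries each. All came from adult transgenic mice of line JX883, which carry EGFP fused to the ribosomal protein Rpl10a under Slc17a6, the gene of the vesicular glutamate transporter VGLUT2. The IP is RNA bound to the tagged ribosomes, captured with antibodies against EGFP, and the input is total RNA of the same kind of tissue. The exact age, the sex, the number of animals behind a library, the hour at which tissue was taken and the lighting schedule are not given in the sources used here. Nothing in the labels says that the replicates came from separate animals, so the spread behind the p-values is that of these libraries and may be technical. The tag marks cells in which this transgene is active, and no capture from mice without the tag was analysed here.

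The mammalian clock is a transcriptional feedback loop. The proteins CLOCK and BMAL1 (encoded by Arntl) pair up and activate genes that carry an E-box, among them the Per and Cry genes, whose products return to the nucleus and block that pair. Nr1d1 (REV-ERB alpha) represses Arntl through a second loop, Bhlhe41 (DEC2) competes at E-boxes, and Dbp is an output factor that acts at D-boxes. In the hypothalamus the suprachiasmatic nucleus is the central pacemaker, and most other brain tissue, the midbrain included, expresses the same genes. In mouse tissues Arntl peaks roughly opposite to Dbp, Nr1d1 and the Per genes, so levels of these RNAs depend on the hour of collection.

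Total counts lay between 41909019 and 55148109 per library. Rn45s, a ribosomal RNA gene, made up 12.3% and 12.5% of reads in the IP libraries numbered 1, 5.21% to 6.85% in the other IP libraries and 2.57% to 3.97% in the input libraries. Reads left uncounted as ambiguous made up 1.37% to 2% in the IPs, against 16.2% and 15.1% in the hypothalamus and midbrain input libraries of number 1 and 4.03% to 9.3% in the other inputs. Slc17a6, the check of the line, had 3489, 1122 and 1743 CPM (counts scaled by TMM-adjusted library size) in the hypothalamus IP libraries numbered 1, 2 and 3, against 518, 218 and 311 CPM in the matching inputs. In the midbrain it had 3955, 1864 and 2394 CPM in the IP, against 1236, 501 and 589 CPM in the input. It was higher in the IP in every pair, and highest in number 1 of each group. The 9 hypothalamic markers summed to 182 to 459 CPM in hypothalamus IP and 233 to 581 CPM in hypothalamus input, against 2.02 to 5.46 CPM in midbrain IP and 4.11 to 10.6 CPM in midbrain input. These markers were far higher in the libraries labelled hypothalamus, and 4 of 8 midbrain markers were lower in hypothalamus input than in midbrain input, with none higher. The 8 astrocyte markers summed to 285 to 388 CPM in hypothalamus IP against 1210 to 2300 CPM in its input, and to 382 to 425 CPM in midbrain IP against 1560 to 2560 CPM in its input, with none at 0. The 3 markers of GABAergic neurons summed to 117 to 308 CPM in hypothalamus IP against 1510 to 1860 CPM in its input. The part of other cell types in the clock gene values was not tested. In tissue RNA, fewer cells of a type and less RNA per cell cannot be told apart.

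Exact motif letters were searched in the 300 bases around RefSeq start sites, 250 before and 50 after, on both strands of GRCm38.p6. The motifs were the E-box CACGTG, its variant the E'-box CACGTT, the D-box TTATGTAA or TTACGTAA, the RORE TAGGTCA or TGGGTCA (bound by ROR and REV-ERB receptors) and the CRE TGACGTCA. None of these matches overlapped another in the clock gene windows. Of the 10 clock genes 9 had a window, all but Per2. Per1, Clock and Arntl had several, and a gene was counted if any of its windows held the motif. The shares of promoters given beside the genes count single windows, so the units differ. An E-box stood in Per1, Cry1 and Bhlhe41, and 7.15% of 32851 promoters held one. An E'-box stood in Cry1, Cry2 and Nr1d1, against 4.68% of promoters. Only Per3 held a D-box, with 2 copies, against 1.06% of promoters. A RORE stood in the second window of Arntl, 31 bases after the start site, against 6.45%. No CRE was found, against 1.79%, which says only that these letters are not in these windows. Matches are descriptions of sequence and not evidence of binding. Cry1 and Bhlhe41 are shown because both rose in an IP comparison and held a match. Dbp rose in the midbrain IP too, but its window held none. Per1, Cry2 and Nr1d1 held an E-box or E'-box and were not called higher. Per3 is shown as the only member with D-boxes. It was lower in the hypothalamus IP, which passed only in some fits, and Per2, Clock and Nr1d1 had negative values there too. The windows shown therefore do not tie a motif to a direction. The RefSeq runs below are the upstream parts outside annotated exons, read 5′ to 3′ on the minus strand of GRCm38.p6, with motif matches in capitals. Cry1 lies at chr10:85185065-85185304, Bhlhe41 at chr6:145865559-145865670 and Per3 at chr4:151044666-151044915. The capitals in Cry1 mark an E'-box read on the opposite strand and then an E-box, in Bhlhe41 an E-box, and in Per3 a pair of D-boxes.
Cry1: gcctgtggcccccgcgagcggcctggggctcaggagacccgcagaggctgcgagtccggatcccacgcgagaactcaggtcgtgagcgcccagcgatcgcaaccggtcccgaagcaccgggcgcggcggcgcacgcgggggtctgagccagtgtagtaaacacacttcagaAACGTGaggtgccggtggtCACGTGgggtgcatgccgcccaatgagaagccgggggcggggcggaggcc
Bhlhe41: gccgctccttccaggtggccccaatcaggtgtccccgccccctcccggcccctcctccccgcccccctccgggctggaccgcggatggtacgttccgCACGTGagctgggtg
Per3: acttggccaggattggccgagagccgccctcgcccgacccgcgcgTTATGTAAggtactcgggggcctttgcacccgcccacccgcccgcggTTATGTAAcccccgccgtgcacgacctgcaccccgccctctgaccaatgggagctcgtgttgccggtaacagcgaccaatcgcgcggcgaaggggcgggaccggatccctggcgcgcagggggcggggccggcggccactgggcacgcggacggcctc

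**Figure D1:**
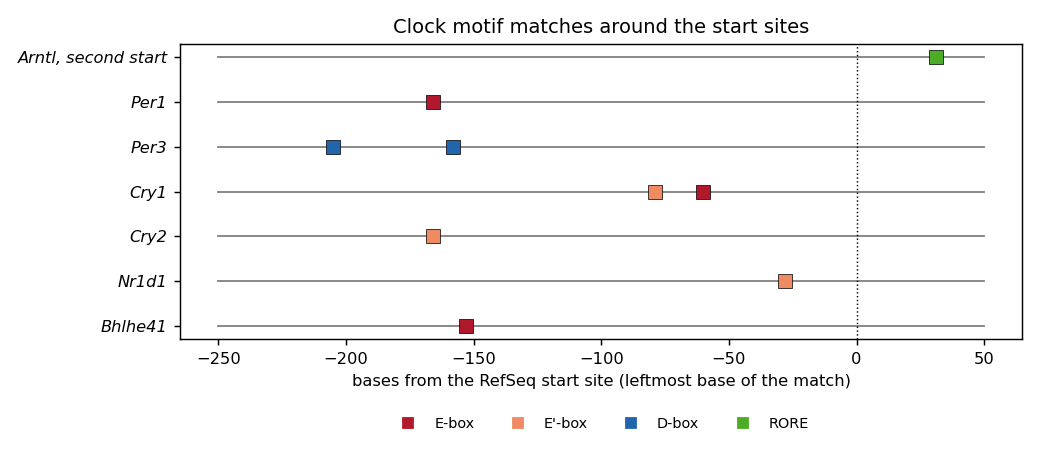
Position of each motif match in the windows of the clock genes that held one, in bases from the RefSeq start site (dotted line), with 1 grey line per window and squares coloured by motif. The E-box and E'-box of Cry1 lie 60 and 79 bases before the start, the E-box of Bhlhe41 153 bases before it, and the D-boxes of Per3 205 and 158 bases before it.

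Levels were first compared among the clock genes as CPM per kilobase of exon, using exon lengths of GENCODE M21. The order by the median over the 12 libraries was Cry2 at 22.1, Bhlhe41 at 21.8, Clock at 17.4, Per1 at 11.5, Nr1d1 at 10.7, Cry1 at 9.23, Per3 at 4.40, Per2 at 4.25, Dbp at 2.42 and Arntl at 2.19 CPM per kilobase. The ranges of neighbours in this order overlapped, except that every library of Cry1 (6.17 to 15.3 CPM per kilobase) lay above every library of Per3 (3.69 to 5.76). In each of the 4 group means the activator Arntl and the output factor Dbp took the lowest places, and the repressors Cry2 and Bhlhe41 and the activator Clock the highest. Their order within these places varied by group: Clock stood at 18.7 and Bhlhe41 at 17.4 CPM per kilobase in the midbrain input, against 17.0 and 17.8 CPM per kilobase in the hypothalamus input. Across the 4 group means, the highest exceeded the lowest by 2.00-fold for Cry1, the widest of the 10, and by 1.13-fold for Cry2, the narrowest.

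**Figure D2:**
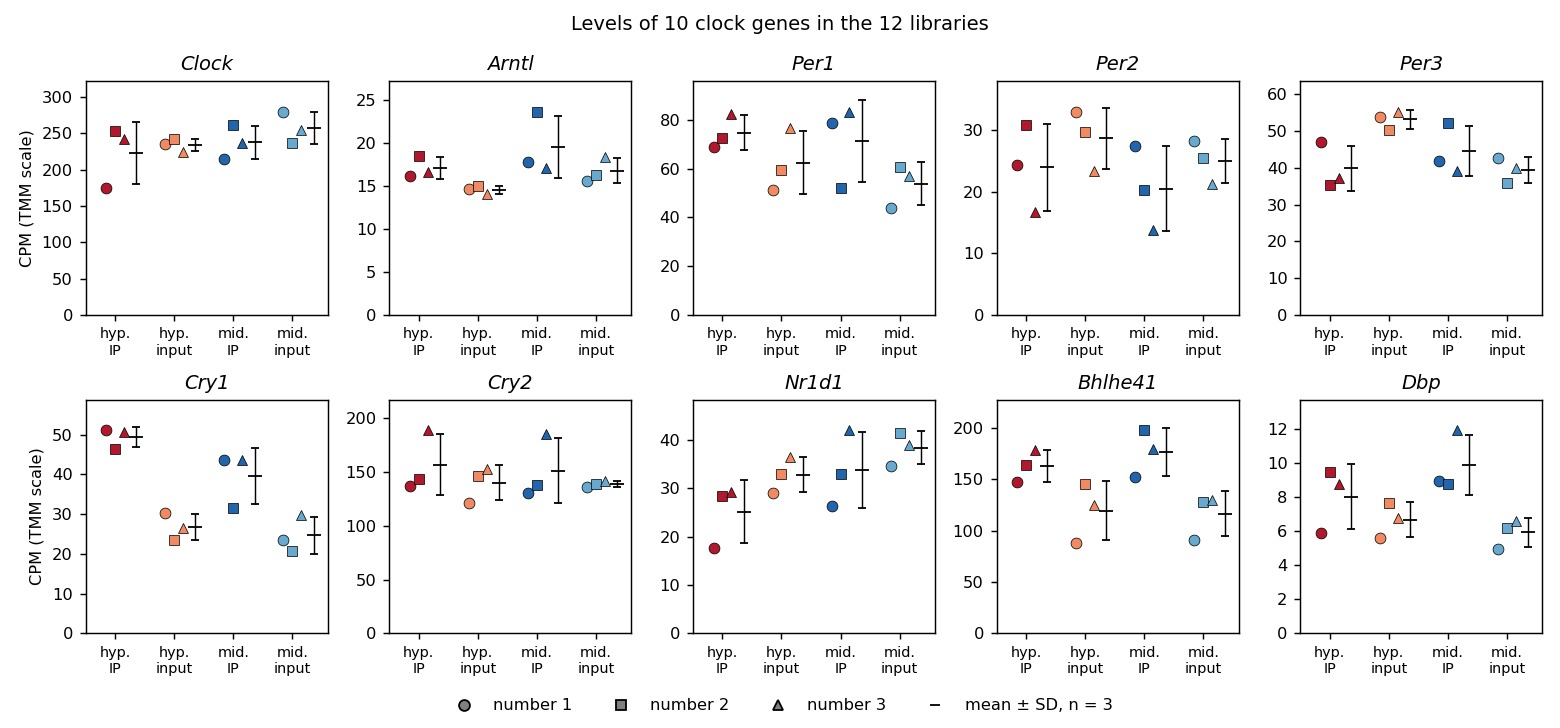
Level of each clock gene in CPM (TMM scale) in the 12 libraries, 1 panel per gene, with hypothalamus IP, hypothalamus input, midbrain IP and midbrain input from left to right. Symbols mark the replicate number and bars the mean ± SD of 3 libraries; Cry1 lies at 31.5 to 51.1 CPM in the IPs and 20.6 to 30.2 CPM in the inputs.

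The first question was whether clock RNAs are enriched on ribosomes of Slc17a6-expressing cells. In the hypothalamus Cry1 rose in the IP by 1.85-fold, and the other 9 did not pass. This 1 of 10 compares with 33.8% of all genes tested that passed in either direction, 14.2% higher and 19.6% lower. Same-numbered libraries deviated together here (correlations of 0.324, 0.159 and 0.155 over all genes), and a fit with the number as a block passed 4 of 10, Cry1 and Bhlhe41 higher and Per3 and Nr1d1 lower, against 43.4% of all genes, 19.5% higher and 23.8% lower. No member changed by 2-fold or more in either direction without the block, and 66.2% of all genes lay within that bound. The median log2 fold change of the 10 was 0.20, against -0.08 over all genes. Here and below, p-values were adjusted over all genes by the Benjamini-Hochberg method after the quasi-likelihood test in edgeR.

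In the midbrain 3 of 10 rose in the IP, Cry1, Bhlhe41 and Dbp, and none fell, against 33.9% of all genes in either direction, 14% higher and 19.9% lower. The median log2 fold change was 0.20, against -0.05 over all genes, and again no member changed by 2-fold or more. The regions did not share one list of calls, but the difference between them was not detectable for any member, as given further on. The CPM of IP and input did not overlap for 4 of 10 members in the hypothalamus (Cry1, Bhlhe41, Arntl, Per3), against 46.9% of all genes, and for 3 of 10 in the midbrain (Cry1, Bhlhe41, Dbp), against 48.9%. These shares lie near or below those of all genes.

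**Figure D3:**
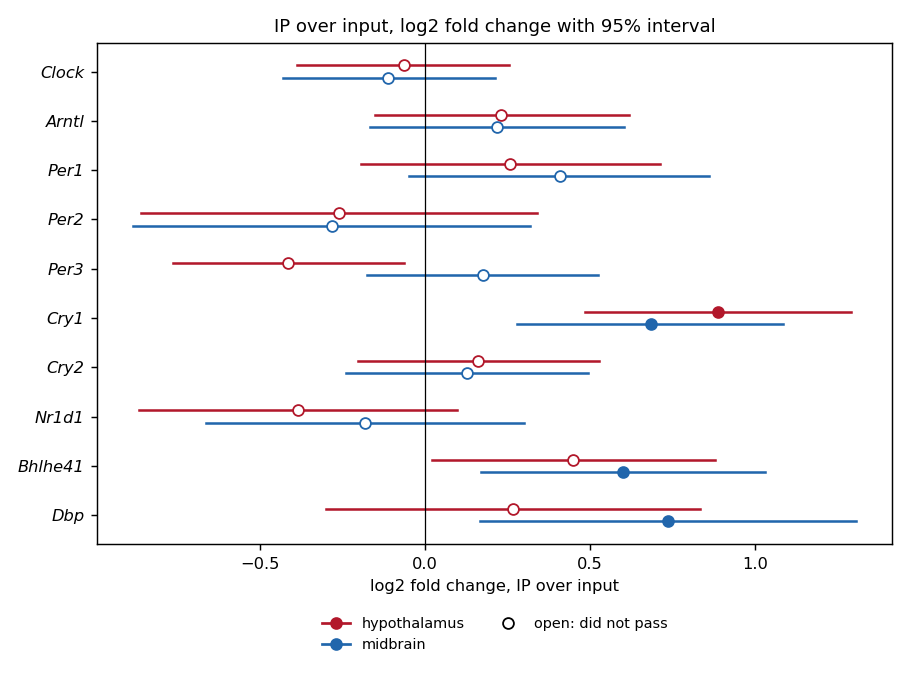
Log2 fold change of IP over input with its 95% interval for each clock gene, hypothalamus in red above midbrain in blue; filled circles passed and open circles did not. Cry1 sits at 0.89 and 0.68, and Per3 at -0.42 in the hypothalamus and 0.17 in the midbrain.

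Cry1 (mm10, chromosome 10, 85131700 to 85185064), a repressor of CLOCK and BMAL1, had 51.1, 46.5 and 50.7 CPM in the hypothalamus IP libraries 1, 2 and 3, against 30.2, 23.6 and 26.4 CPM in the inputs. Midbrain values of Cry1 were 43.6, 31.5 and 43.6 CPM in the IP, against 23.6, 20.6 and 29.8 CPM in the input. Every IP library stood above every input library of its region. The log2 fold change was 0.89 in the hypothalamus (SE 0.19, adjusted p = 0.00333) and 0.68 in the midbrain (SE 0.19, adjusted p = 0.0138). The hypothalamus call held in all 21 alternatives. The midbrain call was lost without midbrain input library 2 (adjusted p = 0.0593) and, in an alternative added after the data were seen, without all 4 libraries of number 1 (adjusted p = 0.0748), and over all 21 alternatives its adjusted p lay between 0.00204 and 0.0748.

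Cry2 (chromosome 2, 92403646 to 92434043), its paralog, had 137, 144 and 189 CPM in hypothalamus IP against 121, 146 and 152 CPM in the input, and 131, 138 and 186 CPM in midbrain IP against 136, 138 and 142 CPM in the input. IP and input overlapped in both regions, with number 3 highest in each IP. The log2 fold changes were 0.16 (95% interval -0.21 to 0.53) and 0.13 (-0.24 to 0.49), so that a change of the size seen for Cry1 lay outside both intervals. The difference between the paralogs was not itself tested. In exon sequence Cry2 shares 295 bases with a noncoding transcript on the opposite strand, and the strand setting of the counting was not stated.

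Bhlhe41 (chromosome 6, 145858243 to 145865558), a repressor at E-boxes, had 147, 164 and 178 CPM in hypothalamus IP against 88.2, 145 and 125 CPM in the input. Its midbrain values were 152, 198 and 179.6 CPM in the IP against 91.2, 128 and 130.3 CPM in the input. All IP libraries exceeded all inputs of their region, and the inputs of number 1 were the lowest libraries in both regions. The log2 fold change was 0.60 in the midbrain (SE 0.20, adjusted p = 0.0338) and 0.45 in the hypothalamus (SE 0.20, adjusted p = 0.102). In the hypothalamus, where same-numbered libraries deviated together, a fit with the number as a block gave 0.47 and called it (adjusted p = 0.00541). The midbrain call passed in 13 of 21 alternatives, with adjusted p between 0.00101 and 0.126. Among the settings that lost it were library size alone (adjusted p = 0.111), DESeq2's size factors (0.0656) and DESeq2 (0.0551). It was also lost without midbrain IP library 2 (0.107) or 3 (0.0741), midbrain input library 1 (0.126) or hypothalamus input library 3 (0.0799). A transcript without a protein on the opposite strand shares 1280 bases, 19% of its exon length.

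Dbp (chromosome 7, 45705088 to 45710203), the output factor at D-boxes, had 5.90, 9.47 and 8.77 CPM in hypothalamus IP against 5.599, 7.66 and 6.81 CPM in the input. Midbrain Dbp stood at 8.95, 8.79 and 11.96 CPM in the IP against 4.98, 6.22 and 6.62 CPM in the input. The groups overlapped in the hypothalamus and not in the midbrain. The log2 fold change was 0.27 in the hypothalamus (SE 0.26, adjusted p = 0.467) and 0.74 in the midbrain (SE 0.26, adjusted p = 0.0465). That midbrain call lay close to the threshold: it passed in 5 of 21 alternatives, with adjusted p between 0.0189 and 0.157, and was lost on leaving out any single library other than hypothalamus IP 1 (0.0511 to 0.157). Dbp shares 539 bases, 18% of its exon length, with Sphk2 (a sphingosine kinase gene) on the opposite strand. Sphk2 had log2 fold changes of 0.57 (adjusted p = 0.0667) and 0.49 (adjusted p = 0.108) in the hypothalamus and midbrain, and its part in the Dbp value was not tested.

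Among the Period genes none rose or fell in the fit without the block. Per3 (chromosome 4, 151003652 to 151044665), the Period gene least needed for rhythms in mice, had 46.9, 35.4 and 37.2 CPM in hypothalamus IP against 53.9, 50.2 and 55.3 CPM in the input. In the midbrain it had 41.9, 52.2 and 39.3 CPM in the IP against 42.6, 35.7 and 39.9 CPM in the input. All 3 hypothalamus IP libraries lay below all 3 inputs, and the midbrain groups overlapped. In the hypothalamus the log2 fold change was -0.42 (SE 0.16, adjusted p = 0.0655), and with the block -0.42 (adjusted p = 0.0381). Per3 also passed there with library size alone (0.0175), DESeq2's size factors (0.0472), DESeq2 (0.024) and without hypothalamus IP library 1 (0.0255), in 7 of 21 alternatives within a range of 0.0175 to 0.196. In the midbrain the log2 fold change was 0.17 (SE 0.16, adjusted p = 0.443).

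Per1 (chromosome 11, 69095217 to 69109960), a Period gene that light and other stimuli induce quickly, had 69.0, 72.6 and 82.6 CPM in hypothalamus IP against 51.3, 59.4 and 76.8 CPM in the input. Midbrain Per1 stood at 78.6, 52.2 and 83.4 CPM in the IP against 44.0, 60.8 and 56.8 CPM in the input. The groups overlapped in both regions, in the midbrain through IP library 2, which lay below its own input. The log2 fold changes were 0.26 (SE 0.21, adjusted p = 0.372) and 0.41 (SE 0.21, adjusted p = 0.155). Without midbrain IP library 2 the midbrain value was 0.59 and passed (adjusted p = 0.0468). Per2 (chromosome 1, 91415982 to 91459324), the Period gene whose loss disrupts rhythms most in mice, had 24.3, 30.9 and 16.7 CPM in hypothalamus IP against 33.0, 29.7 and 23.3 CPM in the input. In the midbrain it had 27.5, 20.3 and 13.7 CPM in the IP against 28.3, 25.4 and 21.2 CPM in the input. Number 3 was the lowest library in each of the 4 groups. The log2 fold changes were -0.26 (SE 0.28, adjusted p = 0.504) and -0.28 (SE 0.28, adjusted p = 0.469), with wide intervals of -0.86 to 0.34 and -0.89 to 0.32.

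Neither activator passed in either region. Clock (chromosome 5, 76209868 to 76304792) had 174, 253 and 243 CPM in hypothalamus IP against 235, 242 and 225 CPM in the input, and 215, 261 and 237 CPM in midbrain IP against 280.1, 236 and 254 CPM in the input. Number 1 was the lowest IP library of both regions. The log2 fold changes were -0.07 (95% interval -0.39 to 0.26) and -0.11 (-0.43 to 0.21), adjusted p = 0.769 and 0.602. Arntl (chromosome 7, 113207465 to 113314126) had 16.2, 18.6 and 16.6 CPM in hypothalamus IP against 14.6, 15.03 and 14.1 CPM in the input, and 17.8, 23.7 and 17.1 CPM in midbrain IP against 15.6, 16.4 and 18.4 CPM in the input. The hypothalamus groups did not overlap and the midbrain groups did. The log2 fold changes were 0.23 (95% interval -0.15 to 0.62) and 0.22 (-0.17 to 0.60), adjusted p = 0.346 and 0.377.

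Nr1d1 (chromosome 11, 98767932 to 98775333), the repressor of Arntl, had 17.7, 28.4 and 29.4 CPM in hypothalamus IP against 29.2, 33.0 and 36.5 CPM in the input. In the midbrain it had 26.3, 33.1 and 42.1 CPM in the IP against 34.7, 41.5 and 39.1 CPM in the input. Each hypothalamus IP library lay below the input of its number, although the groups overlapped. The log2 fold change in the hypothalamus was -0.39 (SE 0.22, adjusted p = 0.204), and with the block -0.41 (adjusted p = 0.0433). In the midbrain it was -0.18 (SE 0.22, adjusted p = 0.566). Nr1d1 shares 263 bases, 8.55% of its exon length, with Thra on the opposite strand, the gene of thyroid hormone receptor alpha. Thra rose in the IP by log2 fold changes of 0.92 in the hypothalamus (adjusted p = 0.000764) and 1.12 in the midbrain (adjusted p = 0.00022). Without strand, reads over the shared bases cannot be told apart.

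The second question was whether the regions differ. The difference of the IP-over-input effects, hypothalamus minus midbrain, passed for 0 of 10 clock genes, against 0.0772% of all genes. DESeq2 and limma-voom also called 0, and 1 member had an unadjusted p under 0.05. That member was Per3, with a difference of -0.59 (SE 0.23, adjusted p = 0.624), negative in 3 of 3 numbers. For Dbp, whose call differed between the regions, the difference was -0.47 (95% interval -1.27 to 0.33, adjusted p = 0.986), and for Bhlhe41 it was -0.15 (-0.76 to 0.45, adjusted p = 1). At this number of libraries the intervals span about a log2 unit or more, so regional differences of moderate size were not detectable.

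Between the hypothalamus IP and the midbrain IP, 0 of 10 clock genes passed, against 4.26% of all genes. DESeq2 and limma-voom called 0 as well, and 0 members had an unadjusted p under 0.05. A fit with the number as a block also called 0 of 10, against 2024 of the 18128 genes tested. Its lowest adjusted p among the members was 0.0883, for Nr1d1 (log2 difference -0.43). Log2 differences lay between -0.43 for Nr1d1 (SE 0.22, adjusted p = 0.339) and 0.32 for Cry1 (SE 0.18, adjusted p = 0.395). Nr1d1 was lower in the hypothalamus IP in 3 of 3 numbers and Cry1 higher in 3 of 3. Only for Cry1 did the groups not overlap, 1 of 10 against 18.5% of all genes.

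Between the hypothalamus input and the midbrain input, 0 of 10 passed, against 1.61% of all genes, and DESeq2 and limma-voom also called 0. Per3 alone had an unadjusted p under 0.05, at 53.1 ± 2.62 CPM in hypothalamus input and 39.4 ± 3.44 CPM in midbrain input (SD, n = 3 each). Its log2 difference was 0.43 (SE 0.16, adjusted p = 0.285), higher in the hypothalamus in 3 of 3 numbers. A fit with the number as a block gave Per3 0.43 (adjusted p = 0.129). That fit also called 0 of 10, against 1097 of the 18128 genes tested. Arntl was lower in 3 of 3, at 14.6 ± 0.470 CPM in hypothalamus input and 16.8 ± 1.45 CPM in midbrain input, which is a log2 difference of -0.20 (adjusted p = 0.827, SE 0.18). Per3 and Arntl were the 2 of 10 members whose groups did not overlap, against 22.1% of all genes. For Cry2 the log2 difference was 0.01, with an interval of -0.35 to 0.38.

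**Figure D4:**
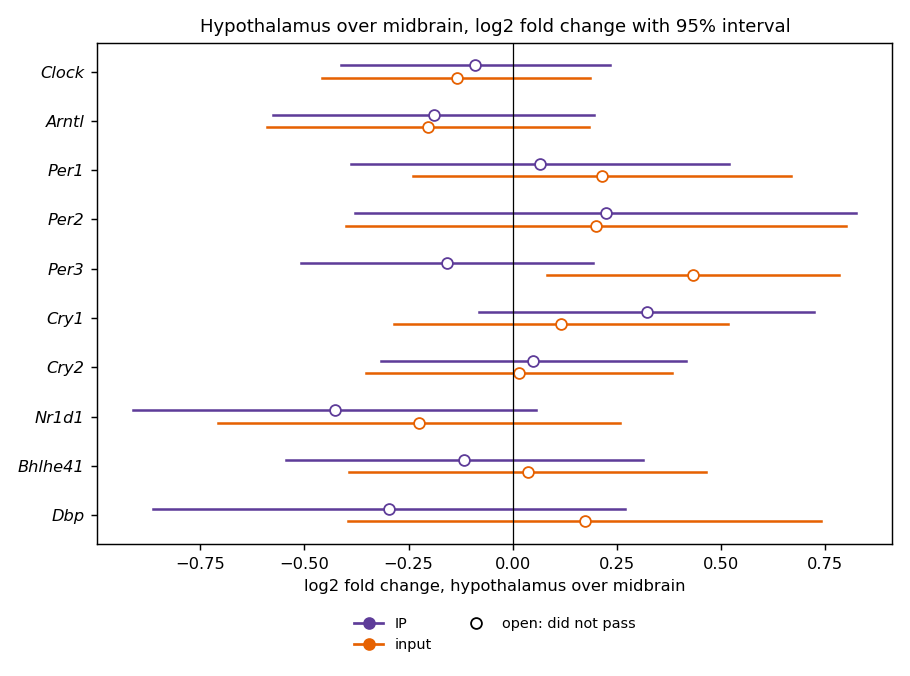
Log2 fold change of hypothalamus over midbrain with its 95% interval for each clock gene, IP in purple above input in orange; open circles did not pass, which all are. Per3 in the input lies at 0.43 with an interval of 0.08 to 0.78, and Nr1d1 in the IP at -0.43.

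The third question was whether clock RNAs differ by replicate number, which 4 libraries share, 1 of each group. Library number and deviations went together across all genes: correlations of deviations from the group mean were 0.0737 to 0.379 for same-numbered libraries and -0.22 to 0.0391 for others. In a fit of group means and number, any difference between numbers passed for 2 of 10 clock genes, Per2 (adjusted p = 0.0269) and Bhlhe41 (adjusted p = 0.0155), against 16.2% of all genes. The 4 libraries of a number may share tissue, so these p-values describe these libraries. By the labels, IP and input of a region and number were sequenced on the same lane number, 7, 6 and 2 in the hypothalamus and 8, 7 and 3 in the midbrain for numbers 1, 2 and 3, so that within a number the lane cannot be told apart from the region. The share of clock genes called is close to that of all genes.

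Number 1 against number 3 gave 4 of 10 calls, against 16.1% of all genes, 10.1% higher and 5.99% lower. Per2 rose and Cry2, Nr1d1 and Bhlhe41 fell in number 1, while DESeq2 and limma-voom also called 4 each. The median log2 fold change of the 10 was -0.20, against 0.03 over all genes.

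Per2 had 24.3, 33.0, 27.5 and 28.3 CPM in number 1, in the order hypothalamus IP, hypothalamus input, midbrain IP and midbrain input, against 16.7, 23.3, 13.7 and 21.2 CPM in number 3. All 4 libraries of number 1 lay above all 4 of number 3. Its log2 fold change was 0.62 (adjusted p = 0.0143, SE 0.15). It was not called without hypothalamus IP library 3 (adjusted p = 0.0542), midbrain IP library 1 (0.0635) or midbrain IP library 3 (0.0693), nor in any subset of 6 libraries, within a range of 0.00316 to 0.286 over 21 alternatives.

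Cry2 had 137, 121, 131 and 136 CPM in number 1, against 189, 152, 186 and 142 CPM in number 3, in the same order of groups. The numbers did not overlap, and the gap was wider in the IP libraries. Its log2 fold change was -0.34 (adjusted p = 0.0321, SE 0.10), and within the IP libraries it still passed, while within the inputs it was -0.19 (adjusted p = 0.318). The test of number by fraction, added after the data were seen, did not pass (adjusted p = 0.41). Leaving out hypothalamus IP 1 (0.0739), hypothalamus IP 3 (0.124), hypothalamus input 1 (0.104), midbrain IP 1 (0.0959) or midbrain IP 3 (0.153) ended the call. It was also lost within the hypothalamus libraries (0.117) and within the midbrain libraries (0.347).

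Nr1d1 had 17.7, 29.2, 26.3 and 34.7 CPM in number 1, against 29.4, 36.5, 42.1 and 39.1 CPM in number 3. Number 1 was lower in 4 of 4 groups, although the numbers overlapped across groups. For Nr1d1 the log2 fold change was -0.47 (SE 0.13, adjusted p = 0.0256). The call was lost without hypothalamus IP 1 (0.0908), hypothalamus IP 3 (0.0782), midbrain IP 1 (0.0834) or midbrain IP 3 (0.12). Among the inputs alone the log2 fold change was -0.25 (adjusted p = 0.305). The call was also lost within the hypothalamus libraries (0.147) and within the midbrain libraries (0.27).

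Bhlhe41 had 147, 88.2, 152 and 91.2 CPM in number 1, 164, 145, 198 and 128 CPM in number 2, and 178, 125, 179.6 and 130.3 CPM in number 3. Number 1 was the lowest in each of the 4 groups. In number 1 against number 2 it fell, with a log2 fold change of -0.44 (adjusted p = 0.010, SE 0.10), the only one of 10 members called there, against 13.8% of all genes (9.45% higher and 4.34% lower), and DESeq2 called 2. Against number 3 its log2 fold change was -0.38 (SE 0.10, adjusted p = 0.0198). Without hypothalamus input 1 neither call held (adjusted p = 0.0538 against number 2 and 0.0887 against number 3). The call against number 2 was also lost without hypothalamus input 2 (0.061), and that against number 3 without hypothalamus IP 3 (0.0634), midbrain input 1 (0.0538) or midbrain input 3 (0.0762). Within the IP libraries alone the log2 fold changes were -0.295 and -0.305, and neither passed (adjusted p = 0.186 and 0.143). Both calls were also lost within the hypothalamus libraries (0.155 and 0.184) and within the midbrain libraries (0.134 and 0.163).

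Number 2 against number 3 gave 0 of 10 calls, against 0.53% of all genes, with 0 by DESeq2 and 0 by limma-voom and 3 members at an unadjusted p under 0.05. These were Per2, at 26.6 ± 4.79 CPM in number 2 and 18.7 ± 4.34 CPM in number 3 (SD, n = 4 each) at a log2 fold change of 0.52 (adjusted p = 0.2, higher in 4 of 4), Cry1 at -0.32 (adjusted p = 0.379) and Cry2 at -0.23 (adjusted p = 0.454). Neither number by fraction nor number by region, both added after the data were seen, passed for any clock gene, while 8 and 18 genes passed in all. Clock had the lowest unadjusted p of the 10 for number by fraction (0.0213, adjusted p = 0.278). In the IP it was lowest in number 1, at 174 CPM in the hypothalamus and 215 CPM in the midbrain, whereas the midbrain input of number 1 was the highest of its group at 280.1 CPM.

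**Figure D5:**
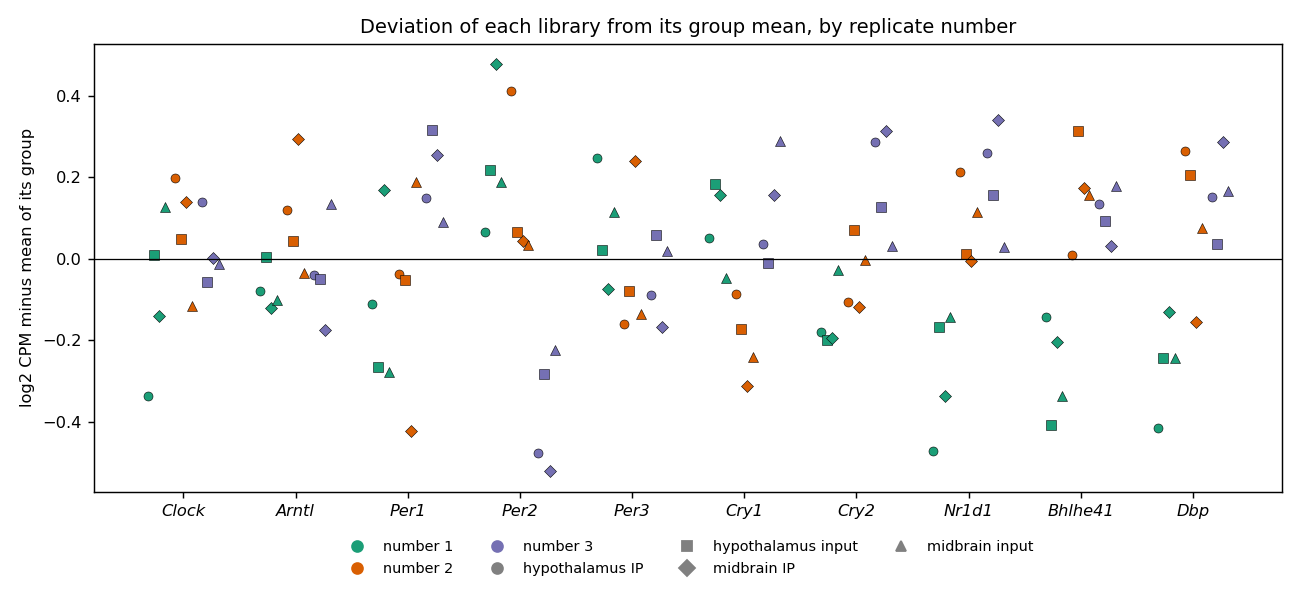
Log2 CPM of each library minus the mean of its group, by clock gene, coloured by replicate number, with 1 symbol per group. Number 3 lies below 0 in all 4 groups for Per2 and number 1 lies below 0 in all 4 groups for Bhlhe41, Nr1d1, Cry2 and Dbp.

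Other measures moved with the replicate number. The astrocyte markers summed to 2300 and 2560 CPM in the number 1 inputs of hypothalamus and midbrain, against 1210 to 1620 CPM in the other inputs, and 4 of 8 rose in number 1 against number 3. Over all genes 10.1% were higher and 5.99% lower in number 1 against number 3. The 4 general neuron markers summed to less in number 1 than in number 3 in every group, at 13100 against 19300 CPM in hypothalamus IP, 7700 against 10900 in hypothalamus input, 17500 against 24900 in midbrain IP and 13800 against 15800 in midbrain input. Most of that sum is Snap25, a synaptic fusion gene, at 11080 ± 3824 CPM in number 1 and 15950 ± 5446 CPM in number 3 (SD, n = 4 each). Of the 4 markers 2 fell and 1 rose, the last being Syt1, a synaptic calcium sensor gene, at 977 ± 189 CPM in number 1 and 613 ± 188 CPM in number 3 (log2 fold change 0.72, adjusted p = 0.00333). The hypothalamic markers summed to 459, 301 and 182 CPM in hypothalamus IP of numbers 1, 2 and 3, against 581, 368 and 233 CPM in its input. Of these 9 markers 1 rose in number 1 against number 3, a share near the 10.1% of all genes. The midbrain markers, among which Slc17a6 counts, summed highest in number 1 of each group, at 4020 CPM in midbrain IP and 1380 CPM in its input, against 1970 and 2430 CPM in the other midbrain IP libraries and 625 and 673 CPM in the other inputs. The 6 microglia markers summed to 56.1 and 62.6 CPM in the number 1 inputs of hypothalamus and midbrain, against 27.1 to 41.2 CPM in the other inputs, and 0 of 6 passed. The shares of Rn45s and ambiguous reads given above set number 1 apart as well. The part of these measures in the clock gene differences was not tested. Beyond the lanes given above, the labels do not say what libraries of one number share.

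The likeness of single genes to Dbp and Arntl was described by the correlation of log2 CPM minus the group mean, over the 12 libraries, among 10385 genes of at least 5 CPM. The points share the normalisation, and libraries of a number may share tissue. Dbp was closest to Ybx1 at r = 0.986, Eif4e2 at 0.973, Asap2 at 0.965, Emd at 0.958 and Rap2a at 0.956. Arntl was closest to Lpp at r = 0.927, Shc4 at 0.923, Ctnna1 at 0.906, Kctd4 at 0.897 and Zfp955a at 0.892. No clock gene was among these. Among the members, Nr1d1 stood nearest to Dbp at r = 0.861, above 98.3% of the genes ranked. Per3 stood farthest at r = -0.791, and 11.1% of the genes ranked lay lower still. To Arntl the members' r lay between -0.522 for Per1 and 0.449 for Clock, and that of Dbp was 0.0878.

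Further genes of the clock were read from lists beside the members. Of 13 other core and accessory clock genes, 2 rose and 1 fell in the hypothalamus IP, against 14.2% of all genes higher and 19.6% lower. With the block Hlf, a D-box factor related to Dbp, rose as well (0.79, adjusted p = 0.000381). Nr1d2 (REV-ERB beta), the paralog of Nr1d1, rose to 124, 141 and 142 CPM in the IP libraries, against 84.3, 75.3 and 71.3 CPM in the inputs, with no overlap. Its log2 fold change was 0.81 (SE 0.14, adjusted p = 0.000941), and Bhlhe40 (DEC1), the paralog of Bhlhe41, had 0.63 (adjusted p = 0.0184). Arntl2, the paralog of Arntl, fell by 1.75 on the log2 scale (adjusted p = 0.00307). In the midbrain 3 of these 13 rose, Bhlhe40 (0.78), Nfil3 (0.77), a repressor at D-boxes, and Nr1d2 (0.60). Adjusted p-values of these 3 were between 0.00557 and 0.00966. The paralogs Nr1d1 and Nr1d2 had opposite signs in both regions, and their difference was not itself tested.

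Of 12 genes for kinases and turnover factors of clock proteins, 4 rose and 0 fell in the hypothalamus IP, and 5 rose and 0 fell in the midbrain IP. Over all genes 14.2% and 14% were higher and 19.6% and 19.9% lower in these comparisons. With the block 7 of the 12 rose in the hypothalamus, against 19.5% of all genes, the further genes being Skp1a (0.93, adjusted p = 0.000115), Fbxw11 (0.33, adjusted p = 0.0122) and Btrc (0.29, adjusted p = 0.0372), all of ubiquitin ligase complexes. Csnk1e, the gene of casein kinase 1 epsilon that phosphorylates PER proteins, had 193, 166 and 177 CPM in hypothalamus IP against 90.9, 90.3 and 101 CPM in the input. Midbrain Csnk1e stood at 219, 197 and 169.6 CPM in the IP against 87.3, 102 and 102 CPM in the input. The groups lay far apart in both regions, with log2 fold changes of 0.93 (adjusted p = 0.000329) and 1.01 (adjusted p = 0.000201). Fbxl21, an F-box gene for CRY turnover, had 0.68 and 0.71 (adjusted p = 0.00582 and 0.00453), Usp7, a deubiquitinase gene, 0.46 and 0.47 (0.0308 and 0.0268), and Csnk1d, the gene of casein kinase 1 delta, 0.38 and 0.32 (0.0185 and 0.0431). The median log2 fold change of this list was 0.32 in the hypothalamus and 0.31 in the midbrain, against -0.08 and -0.05 over all genes. Of 8 genes for cofactors of clock repressors, Hdac3 rose in both regions (0.54 and 0.79, adjusted p = 0.0281 and 0.00388). Sirt1 fell in the hypothalamus (by 0.73, adjusted p = 0.0064) and Ncor1 rose in the midbrain (0.42, adjusted p = 0.0401). With the block 3 of these 8 rose and 2 fell in the hypothalamus, with Nono and Ncor1 among the higher and Crebbp among the lower.

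The E-box and D-box output list, which holds Nr1d2 and Bhlhe40 again, had 2 of 12 higher and 1 lower in the hypothalamus IP. Over all genes 14.2% were higher and 19.6% lower there. In the midbrain IP 4 were higher and 1 lower, against 14% and 19.9% of all genes. With the block 4 were higher and 2 lower in the hypothalamus, against 19.5% and 23.8% of all genes. The lower gene in both regions without the block was Pdk4, a pyruvate dehydrogenase kinase gene, with log2 fold changes of -3.17 and -4.33 (adjusted p = 0.000985 and 0.000192). Wee1, a cell cycle kinase gene, rose in the midbrain (0.72, adjusted p = 0.0138). Of 12 suprachiasmatic markers, 3 rose and 3 fell in the hypothalamus IP, against 14.2% of all genes higher and 19.6% lower. Vip and Avp, the peptide genes of that nucleus, fell to 0.0380 and 1.83 CPM in the IP, against 1.85 and 34.5 CPM in the input (adjusted p = 0.00399 and 0.00713). The IP value of Vip is under the 0.0551 to 0.0604 CPM that 3 reads make in these libraries. Avp is also made outside that nucleus. Lhx1, a transcription factor gene of the nucleus, rose to 53.1 CPM in the IP against 11.0 CPM in the input (adjusted p = 0.0015), although it is not particular to that nucleus. In the midbrain IP 3 of the 12 markers rose and 1 fell, against 14% of all genes higher and 19.9% lower. The 12 summed to 678 to 787 CPM in hypothalamus input and 695 to 859 CPM in midbrain input. Their sums were 838 to 1190 CPM in hypothalamus IP and 763 to 1210 CPM in midbrain IP. As a sum, the list did not set the hypothalamus apart.

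By replicate number, 4 of the 13 other clock genes fell in number 1 against number 3, and 0 rose, against 5.99% of all genes lower and 10.1% higher. Npas2, a paralog of Clock, had 8.84, 16.2, 16.8 and 13.5 CPM in number 1, in the order hypothalamus IP, hypothalamus input, midbrain IP and midbrain input, against 37.2, 28.8, 46.2 and 26.3 CPM in number 3. All 4 libraries of number 1 lay below all 4 of number 3. For Npas2 the log2 fold change was -1.31 (SE 0.20, adjusted p = 0.000621). Rora, a receptor that activates Arntl, had -1.22 (adjusted p = 0.000407), Hlf -0.77 (adjusted p = 0.000591), and Rorb -0.64 (adjusted p = 0.0386, lower in 3 of 4 groups). Rora was also the only one of the 13 called between numbers 2 and 3 (-0.91, adjusted p = 0.032). These 4 are the ones that passed in number 1 against number 3, so their sizes cannot be set against those of all 10 members. The median log2 fold change of the 13 was -0.06, against -0.20 for the 10 members and 0.03 over all genes.

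Of 10 genes known to respond to glucocorticoids, 6 fell and 0 rose in number 1 against number 3, beside the same 5.99% and 10.1% of all genes. Klf9, a Krüppel-like factor gene, had 52.9, 58.8, 116 and 93.5 CPM in number 1, in the same order of groups, against 144, 128, 225 and 187 CPM in number 3. It was lower in number 1 in 4 of 4 groups, at -1.13 on the log2 scale (adjusted p = 4.82e-05, SE 0.10). Cdkn1a, a cell cycle inhibitor gene, had -0.91 (adjusted p = 0.00344) and Sgk1, a kinase gene, -0.69 (adjusted p = 0.00136). Of 12 immediate early genes, Fosb (-0.94) and Dusp1 (-0.74) fell in number 1 against number 3 (adjusted p = 0.00543 and 0.00877) and 0 rose. Against number 2, Nr4a1 (0.86) and Btg2 (0.78) rose in number 1 (adjusted p = 0.00866 and 0.0327) and 0 fell, against 9.45% of all genes higher and 4.34% lower. Of 8 cold- and heat-responsive genes, Hspa5 rose (1.04) and Dnajb1 (-0.98) and Hsph1 (-0.40) fell in number 1 against number 3, with adjusted p between 4.31e-05 and 0.00632.

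In IP against input, 5 of the 10 glucocorticoid-responsive genes fell and 0 rose in each region, against 19.6% and 19.9% of all genes lower, among them Pdk4 again, Hif3a (-2.28 and -3.77) and Sgk1 (-1.24 and -1.05). These fell beside the astrocyte markers, all 8 of which fell in both IPs; their part was not tested. Cirbp, a cold-induced RNA-binding protein gene, rose by 0.81 and 0.79 (adjusted p = 0.00452 and 0.00539), 1 of 8 genes of its list in each region. With the block Dnajb1 rose and Hspa5 fell as well in the hypothalamus (0.33 and -0.91, adjusted p = 0.017 and 0.0109). Immediate early genes fell for 2 of 12 and rose for 0 in the hypothalamus IP (Egr2, -2.39, and Npas4, -0.93), and rose for 3 and fell for 0 in the midbrain IP (Fos, 0.92, Egr1, 0.81, and Fosl2, 0.72). The regional difference passed for 0 of these 12, and with the block for Egr1 alone (-1.12, adjusted p = 0.0373), against 0.259% of all genes lower with the block. All 12 estimates without the block were negative, with a median of -0.66 against -0.01 over all genes. Hypothalamus over midbrain, the median of these 12 was 1.10 between the inputs, against 0.01 over all genes. There 2 of 12 passed, both higher, against 1.61% of all genes. With the block 8 rose and 0 fell, against 521 and 576 of the 18128 genes tested. Between the IPs the median was 0.39, against 0.01 over all genes, and 0 of 12 passed, against 4.26%. With the block 2 rose and 1 fell there, against 800 and 1224 genes.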

How the data were processed

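Gene counts from 12 libraries (hypothalamus and midbrain, IP and input, 3 each) were used. The authors deposited raw counts per gene, made with STAR 2.0.0e on mm10 and HTSeq, per the submitters' processing notes; annotation, strand setting and counting mode are not given in the sources used here. The 5 HTSeq summary rows and a row named unknown (at most 7 reads) were left out. Depth was 41909019 to 55148109 counts per library. The reads carry no molecular identifiers and may repeat molecules, so depth bears on counting error only. In R 4.3.3 with edgeR 4.0.16, genes were kept with filterByExpr (minimum count 10), scaled by TMM and tested with the robust quasi-likelihood F test, 4 group means over 12 libraries, at a Benjamini-Hochberg adjusted p of 0.05. Replicate contrasts added the number as a factor. Scripts were tested on simulated data. Alternatives were library size, DESeq2 size factors, DESeq2 1.42.0, limma-voom 3.58.1, no filter, subsets, each library left out, and the replicate block. Same-numbered IP and input of a region share a lane number by the labels, which do not say whether they share animals or a day. Same-numbered deviations correlated at 0.324, 0.159 and 0.155 between hypothalamus IP and input, 0.301, 0.113 and 0.219 between the IPs and 0.379, 0.141 and 0.167 between the inputs. Numbers were taken as pairs there, by a rule that every pair exceed 0.1. The main fits still left the number out, and a fit with the number as a block is given beside them. Named genes were all 10 members and, per list, up to 5 passing genes with the largest fold change and a mean of at least 1 CPM; Slc17a6, Rn45s, Thra and Sphk2 were named beside results they touch. Members and lists were chosen with earlier results of these data known. Per2 had no promoter window in the table used. Results of some list genes are not reported here.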

Additional observations from a re-analysis of the deposited data

How the results depend on the processing

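Each comparison was refitted under up to 22 alternatives, 2 of them added after the data were seen, and the cause of a changed value was not tested. For single clock genes, 986 values with 1 library left out and 732 under the other settings kept direction and side of the threshold. Calls were lost 41 and 32 times, gained 5 and 19 times, and signs turned 48 and 27 times, none of the last in a called member.
Clock genes called in the hypothalamus IP against input were 1, and 2 with library size alone, DESeq2 size factors, DESeq2, both number 1 IPs left out, or all of number 1 left out, and 4 with the replicate block. The block changed no other member's call. In the midbrain they were 3, and 1 with library size alone, DESeq2 size factors or without number 1. There the numbers did not pair by the rule used (0.189, 0.0754 and 0.157), and the block called 3 as well. Of the immediate early genes the block called 7 of 12 higher there, in place of 3 without it. Over all genes tested it called 3672 of 18128 higher there, in place of 2544. By replicate number, 1 against 2 gave 2 with library size alone and DESeq2, and 0 within IP, hypothalamus or midbrain libraries. Number 1 against 3 gave 2 within IP or input libraries and 0 within either region. Any difference gave 4 with library size alone, DESeq2 size factors or DESeq2, 1 within IP or input libraries and 0 within either region.
Leaving out 1 library at a time, clock genes called ranged from 1 to 2 in the hypothalamus, 1 to 3 in the midbrain, 0 to 1 for number 1 against 2, 0 to 4 for 1 against 3 and 0 to 3 for any difference.
Counts over all genes changed as follows. For the regional difference DESeq2 gave 213, limma-voom 8, the block 105 and leaving out number 1 9, against 14; single libraries left out gave 8 to 33. Between the IPs DESeq2 gave 1800, the block 2024, the 2 groups alone 196 and leaving out the number 1 IPs 452, against 773; single libraries gave 373 to 758. Between the inputs DESeq2 gave 762 and the block 1097, against 291; single libraries gave 93 to 364. Within hypothalamus and midbrain libraries the replicate counts were 1324 and 373 (1 against 2, reported 2501), 1259 and 729 (1 against 3, reported 2923) and 1305 and 684 (any, reported 2936). For 2 against 3 (reported 96), DESeq2 gave 457, limma-voom 221, no filter 159, the inputs 5, the hypothalamus 16, the midbrain 41 and leaving out number 1 240. Leaving out single libraries gave 24 to 185 for 2 against 3, 1619 to 2530 for 1 against 2 and 1979 to 2887 for 1 against 3.
Library size alone moved the median of all genes by -0.165 in the hypothalamus IP against input, 0.123 between the inputs and -0.134 for number 1 against 2. The higher share of calls was then 28.9% in place of 42.1%, 74.1% in place of 62.5% and 46.1% in place of 68.5%; for number 1 against 3 it was 47.2% in place of 62.8%.
Signs turned in uncalled values. With library size alone the regional difference was -0.0483 for Per2, -0.0555 for Cry2, -0.0371 for Clock and -0.076 for Arntl, and number 1 against 2 was -0.038 for Per2 and -0.0279 for Per3. Cry2 between the inputs was -0.00174 with DESeq2 size factors and -0.00172 with DESeq2, and the regional difference of Arntl was -0.000153 with no filter. Within IP libraries Per1 was 0.226 (1 against 2) and Bhlhe41 -0.0105 (2 against 3). Within inputs Clock was 0.101 (1 against 2) and 0.104 (1 against 3), and for 2 against 3 Per3 was -0.147, Arntl -0.0412 and Dbp 0.0415. Within the hypothalamus Per2 was -0.149 (1 against 2), Cry1 0.041 (1 against 3), Per3 -0.125 and Dbp 0.121 (2 against 3), and within the midbrain Per3 was -0.0881 (1 against 2). Without the number 1 IPs Clock was 0.0857 in the hypothalamus IP against input and the regional Arntl difference -0.0103. Without all of number 1 Clock was 0.0892 (hypothalamus) and 0.024 (midbrain), the regional Cry2 difference -0.0539 and Cry1 between the inputs -0.0122.
With 1 library left out, uncalled values whose sign turned ranged as follows. IP against input: Clock -0.164 to 0.086 (hypothalamus), Cry2 -0.0461 to 0.224 (midbrain). Between the IPs: Clock -0.189 to 0.061, Cry2 -0.108 to 0.223, Per1 -0.116 to 0.194, Per2 -0.00257 to 0.491. Between the inputs: Bhlhe41 -0.13 to 0.213, Cry2 -0.105 to 0.108, Per1 -0.0201 to 0.338. The regional difference: Arntl -0.072 to 0.176, Bhlhe41 -0.329 to 0.014, Clock -0.0535 to 0.196, Cry2 -0.123 to 0.209, Per1 -0.33 to 0.0736, Per2 -0.203 to 0.291. Number 1 against 2: Per1 -0.212 to 0.093, Per2 -0.029 to 0.24. Number 1 against 3: Arntl -0.125 to 0.0421, Clock -0.205 to 0.0268, Cry1 -0.167 to 0.0529. Number 2 against 3: Bhlhe41 -0.0193 to 0.132, Clock -0.0138 to 0.14, Dbp -0.143 to 0.0666, Per3 -0.127 to 0.0794.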
